A study of Mus musculus with 27 samples.

Results

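The expression of 10 cartilage genes was followed through osteoblast differentiation of mouse calvarial cells, cells of the flat bones of the skull vault. The 10 genes were chosen by name, as 3 transcription factors (Sox9, Sox5 and Sox6), 3 collagen chains (Col2a1, Col9a1 and Col10a1) and 4 other matrix proteins (Acan, Comp, Chad and Hapln1), of 37991 genes measured. The cells came from calvariae of C57BL/6J pups aged 5 to 9 days that carried a cyan fluorescent protein driven by Col3.6, a collagen type I promoter fragment. After 4 days in growth medium they were sorted for that protein and returned to culture with ascorbic acid, beta-glycerol phosphate, serum and antibiotics, and RNA was taken every 2 days from day 2 to day 18. Strain, transgene, sorting and medium were shared by all 9 time points, and the labels separate these only by day. Col3.6 is active in many cells that make type I collagen and not in osteoblasts alone. The number of animals and of cultures behind a day was not given in the sources used here.

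Each day was represented by 3 profiles, called triplicate samples in the study's methods, whose file names show 1 barcode run in 3 lanes. They were summed to 1 library per day of 22470195 to 62009157 estimated counts. The 3 lanes of a day differed by no more than sampling noise (chi-square per degree of freedom of 0.999 to 1.02 over genes with whole-number counts). The SD given with each level is over these 3 lanes (n = 3) and covers sequencing and quantification only, if the 3 are lanes of 1 library. The p-values below test a trend over the 9 summed libraries against the scatter around it, and not against a spread between cultures. Levels are TPM, transcript abundances corrected for transcript length, scaled to the upper quartile of each profile. In RNA from a whole dish, fewer cells of a type and less RNA per cell cannot be told apart.

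Cartilage is laid down by chondrocytes, whose identity depends on the transcription factor Sox9 and its partners Sox5 and Sox6. Sox9 drives the genes for type II collagen, the main fibril of cartilage, and for aggrecan, the large proteoglycan that holds water in the tissue and is anchored to hyaluronan by link protein. The bones of the skull vault form directly from mesenchyme, without a cartilage template, whereas most other bones pass through a cartilage stage that ends in hypertrophic chondrocytes making type X collagen.

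All 10 genes were detected, defined as more than 3 summed counts on at least 1 day, and none stayed undetected throughout. Only Chad had days without a single read, namely days 2, 4 and 8. Each of the 10 also reached 1 TPM on at least 1 day: Sox9, Sox5, Sox6, Col2a1, Comp and Hapln1 on all 9 days, Col9a1 on 6, Chad on 3, Col10a1 on 2 and Acan on 1. By their mean over 9 days the order was Col2a1 (70.3 TPM), Sox9 (44.9), Comp (37.5), Hapln1 (6.02), Sox6 (4.82), Col9a1 (3.40), Sox5 (2.81), Chad (1.83), Col10a1 (0.652) and Acan (0.475). Every neighbouring pair in that order overlapped in its range over days. The order also turned over with time, since Col2a1 made up 76.2% of the summed TPM of the 10 genes on day 2 and 23.2% on day 18, while Comp went from 0.886% to 38.7%.

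**Figure D1:**
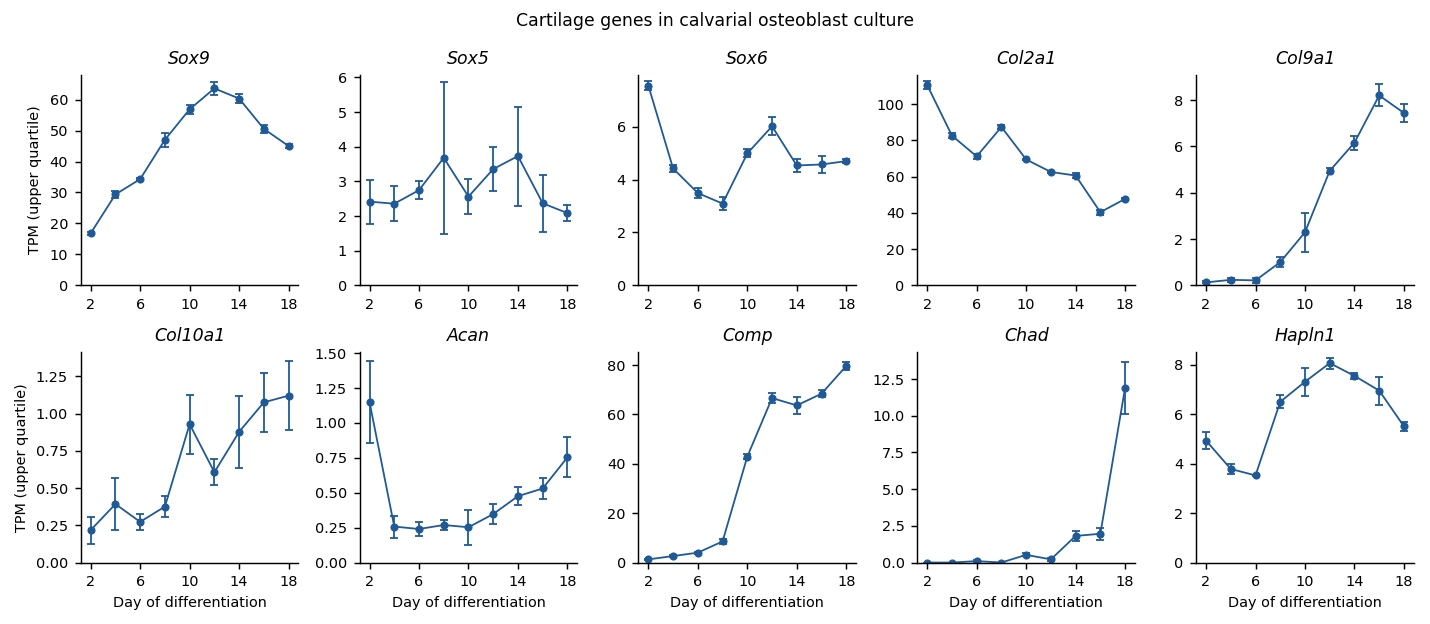
Level of each cartilage gene (vertical axis, TPM scaled to the upper quartile, each panel with its own scale from 0) against day of differentiation (horizontal axis). Points are means of 3 lane profiles and bars are the SD over lanes. Comp is highest on day 18, Col9a1 on day 16, and Sox9 and Hapln1 on day 12 on this scale. Chad appears late, and Col2a1 declines from 110.6 TPM on day 2.

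A straight line in day, fitted by edgeR's quasi-likelihood test over 15659 genes, called 5 of the 10 genes as rising (Sox9, Col9a1, Col10a1, Comp and Chad) and 1 as falling (Col2a1), at a Benjamini-Hochberg adjusted p under 0.05. Over all genes tested, 28.3% rose and 26.1% fell. A curved fit over day (a natural spline, 3 degrees of freedom), which also catches genes highest or lowest in the middle days, called 9 of the 10, against 57.5% of 16256 genes. Sox5 was the gene not called. Between day 2 and day 18 the median fitted log2 change was 0.96 for the 10 genes and 0.05 for all genes tested. Most genes of this culture changed over time, so the share of these genes called by the spline has to be read against that high background.

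**Figure D2:**
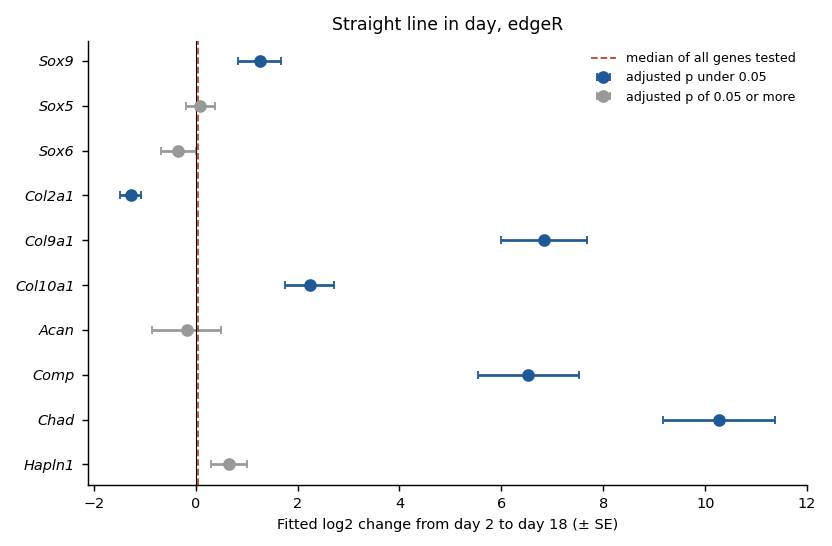
Fitted log2 change from day 2 to day 18 (horizontal axis) with its SE for the 10 genes (vertical axis), from the straight line fitted by edgeR. Blue points have an adjusted p under 0.05, grey points do not, and the dashed line is the median of all genes tested (0.05). Col2a1 is the only blue point below 0, and Chad, Col9a1 and Comp lie furthest to the right.

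Sox9, the master regulator of chondrocytes (NCBIM37 chr11:112643538-112649074, plus strand), was present from the start. Sampled every 2 days from day 2 to day 18, its level was 16.8, 29.4, 34.3, 47.0, 56.9, 63.6, 60.3, 50.5 and 45.0 TPM, with an SD over lanes of at most 2.33 TPM. The curve was thus a rise to the middle days followed by a partial return, and days 14 to 18 all lay above days 2 to 6. The fitted line gave a log2 change of 1.26 ± 0.42 (SE, adjusted p = 0.0263 by edgeR), and the spline an adjusted p of 1.22e-06. The call of the line was lost when any 1 of days 2, 4, 6 or 14 was left out, with edgeR adjusted p of 0.0509 to 0.142 and a log2 change of 0.73 without day 2, whereas the call of the spline held without any single day.

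Neither partner of Sox9 was called by the line. Sox6 (chr7:122614858-123182258, minus strand) measured 7.55, 4.42, 3.49, 3.09, 4.99, 6.01, 4.53, 4.57 and 4.70 TPM on the same 9 days, with an SD over lanes of at most 0.339 TPM. It was highest on day 2 and lowest on day 8. The fitted slope did not pass (log2 change -0.34 ± 0.34, adjusted p = 0.431 by edgeR), whereas the spline gave an adjusted p of 0.00638. Without day 2, 6 or 8 the spline's adjusted p by edgeR was 0.335, 0.0696 and 0.0507, and with 2 degrees of freedom over all days it was 0.326. Relative to Sox9, the Sox6 level was 44.9% on day 2 and 6.57% to 10.4% from day 8 onward.

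Sox5 (chr6:143776945-144730497, minus strand), the closest relative of Sox6, is better read from its counts than from its TPM. The transcript length that RSEM averages over its 14 annotated transcripts varied 3.27-fold between profiles, from 2119 to 6939 bases, and its TPM had an SD over lanes of up to 2.19 on day 8, when its mean was 3.68 TPM. As CPM, a count scaled to the total of its library, Sox5 stood at 6.08, 7.21, 9.15, 9.24, 9.39, 8.84, 5.82, 6.59 and 7.92 over the 9 days in order. The 95% Wilson interval was 5.38 to 6.87 on day 2 and 7.13 to 8.79 on day 18. Neither the line (log2 change 0.09 ± 0.28, adjusted p = 0.799) nor the spline (adjusted p = 0.133) called a change by edgeR. Sox5 shares up to 1330 bases of exon with the antisense gene 4933415D12Rik, which drew 16 counts in all profiles together, and whether the counting used strand was not given in the sources used here.

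Col2a1, the chain of type II collagen (chr15:97806033-97835155, minus strand), was the most abundant member and the only one that fell. In order of day its level was 110.6, 82.7, 71.2, 87.5, 69.5, 62.6, 60.7, 40.4 and 47.8 TPM, with an SD over lanes of at most 2.14 TPM. Days 14 to 18 all lay below days 2 to 6, and day 8 interrupted the decline. The line gave a log2 change of -1.27 ± 0.20 (adjusted p = 0.000498 by edgeR), a call that held without any single day. Sox9, its known activator, rose 3.78-fold from its lowest to its highest day while Col2a1 was lower on day 12 than on any of days 2 to 10. Set against Col1a1, the main collagen chain of bone, the Col2a1 level was 7.25% on day 2, 2.14% on day 10 and 1.12% on day 18, with Col1a1 itself going from 1526 to 4263 TPM.

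Col9a1 encodes a chain of type IX collagen, which coats type II fibrils in cartilage, and it rose. Its gene (chr1:24184449-24259577, plus strand) has a pair of annotated starts about 17577 bases apart. As background, the upstream start is the one used in hyaline cartilage and the downstream start gives a shorter chain, known from the cornea and vitreous of the eye, that lacks the large amino-terminal domain. Because the deposited lengths bear on which start was used, both regions are shown, from 100 bases before to 20 bases from the start in the RefSeq promoter table, with the first 6 transcribed bases in capitals. Both matched NCBIM37 exactly once, the upstream one at chr1:24184349-24184468 and the downstream one at chr1:24201942-24202061, on the plus strand. The upstream RefSeq start is the first base of the annotated 3834-base transcript. The downstream RefSeq start lies 16 bases after the annotated first base of a 3059-base transcript and 177 bases before that of a 2941-base one.
Col9a1 upstream start: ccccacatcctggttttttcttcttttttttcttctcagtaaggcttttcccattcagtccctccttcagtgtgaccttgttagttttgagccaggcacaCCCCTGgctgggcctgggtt
Col9a1 downstream start: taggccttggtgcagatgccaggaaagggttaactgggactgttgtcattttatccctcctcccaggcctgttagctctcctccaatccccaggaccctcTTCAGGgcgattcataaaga

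From day 2 to day 18 the Col9a1 level was 0.128, 0.238, 0.215, 1.00, 2.29, 4.94, 6.16, 8.20 and 7.44 TPM, with the widest SD over lanes on day 10, at 0.848 TPM. These levels rested on 10 to 12 counts per day up to day 6 and on 469 to 682 counts from day 12. The line gave a log2 change of 6.83 ± 0.84 (adjusted p = 0.000133 by edgeR) and the spline an adjusted p of 4.49e-07. Relative to Col2a1 it went from 0.116% on day 2 to 20.3% on day 16.

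RSEM reports for each profile a gene length averaged over transcripts by their estimated abundance. On days 12 to 18 that length was 2941 to 3016 bases in 12 of 12 profiles, between the 2 protein-coding transcripts of the downstream start, of 2941 and 3059 bases. The protein-coding transcripts of the upstream start are longer, at 3136 and 3834 bases. A mixture of the longest transcript with the shortest of the 4 would reach 3016 bases with 8.44% of the former. On days 2 to 10, 10 of 15 profiles had exactly 2941 bases, and the lowest of the others, at 1206 bases, rested on few reads. An averaged length cannot separate such mixtures from ones that include the short noncoding transcripts of the locus, and per-transcript values were not used here.

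**Figure D3:**
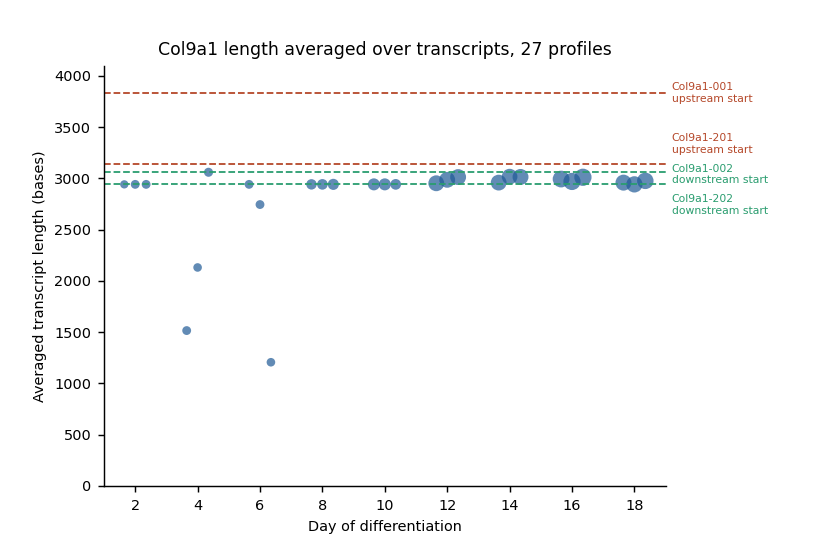
Transcript length of Col9a1 averaged by RSEM (vertical axis, bases) in each of 27 profiles against day (horizontal axis, the 3 lanes of a day set side by side). Point area grows with the count, and dashed lines are the 4 annotated protein-coding transcripts. From day 12 all points lie between the lines of the 2 downstream-start transcripts, at 2941 and 3059 bases.

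Type IX collagen is a trimer of 3 different chains, and its other chains are given beside Col9a1. Col9a3 went from 2.24 TPM on day 2 to 42.1 on day 10 and back to 15.0 on day 18. Its counts were split by RSEM in 26 profiles, which also limits the ratios to Col9a3 given below. The line did not call Col9a3 (log2 change 2.06 ± 1.31, adjusted p = 0.208 by edgeR), whereas the spline did (adjusted p = 1.16e-06 by edgeR). Col9a2 went from 0.0255 TPM on day 2 to 3.48 on day 14 and 2.42 on day 18. The lowest daily count of Col9a2 was 2, under the floor of 3. Col9a1 stood at 5.71% of the Col9a3 level on day 2, 1.86% on day 6 and 49.5% on day 18. Col11a1, a chain of type XI collagen that copolymerizes with type II, was below Col2a1 on day 2 (84.8 against 110.6 TPM) and at 999% of its level on day 16. The Col11a1 rise was called by the line (log2 change 2.12 ± 0.60, adjusted p = 0.0121 by edgeR) but not without day 2 (adjusted p = 0.0731 by edgeR).

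**Figure D4:**
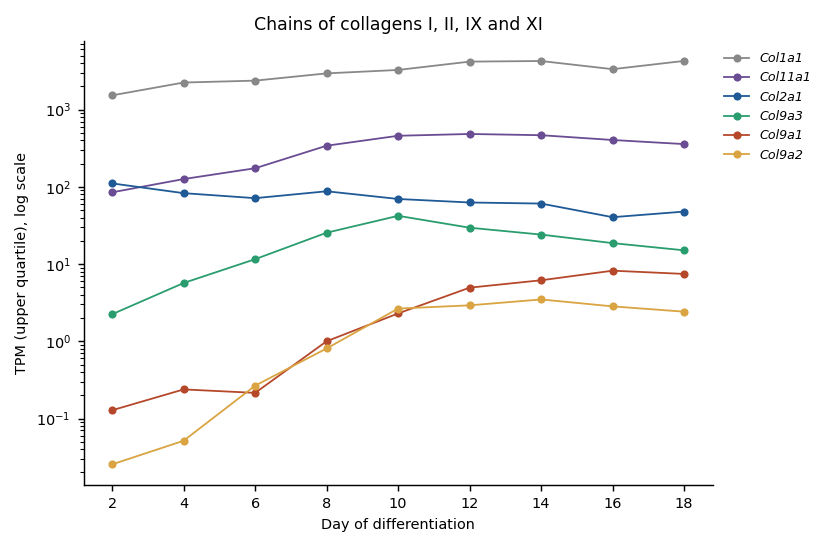
Level (vertical axis, TPM scaled to the upper quartile, log scale) of chains of collagens I, II, IX and XI by day (horizontal axis). Col2a1 declines while Col9a1, Col9a2, Col11a1 and Col1a1 end higher than they began, and Col9a3 is highest on day 10 at 42.1 TPM.

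Col10a1 and Chad are shown in the same window, with TATAAA in capitals. Of the 7 genes of the set with a promoter window, they were the 2 with the letters of a TATA box close to the start. In NCBIM37 the Col10a1 window is chr10:34109687-34109806 and the Chad window chr11:94426261-94426380, both on the plus strand and both at the first base of the annotated transcript.
Col10a1: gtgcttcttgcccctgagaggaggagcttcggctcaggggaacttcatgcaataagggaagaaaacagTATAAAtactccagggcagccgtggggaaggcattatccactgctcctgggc
Chad: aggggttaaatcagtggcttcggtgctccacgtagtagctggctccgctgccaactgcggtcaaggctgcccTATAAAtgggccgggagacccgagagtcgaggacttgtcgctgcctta
The motif began 32 bases before the start of Col10a1 and 28 bases before that of Chad. On the plus strand with its first base 21 to 40 bases before the start, it occurs in 1.99% of 32851 RefSeq promoter windows of the mouse (GRCm38.p6, 250 bases before to 50 after the start), and in 13.6% anywhere in the window on either strand. The table held 13 windows for 7 of the 10 genes, with no entry for Sox9, Col2a1 and Comp. ACAATG, a core to which Sox proteins bind, occurred on either strand in 3 of the 13 windows, those of Sox5 and Sox6, and in 12.6% of all windows. ACAAAG, a related core that shares its first 4 letters, occurred in 6 of the 13, those of Col10a1 and Sox6, and in 18.7% of all. These matches are descriptions of letters and were not tested as sites.

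Col10a1, the marker of hypertrophic chondrocytes, stayed low throughout (chr10:34109787-34116891). The 9 values in order of day were 0.218, 0.392, 0.273, 0.375, 0.928, 0.606, 0.877, 1.08 and 1.12 TPM, with an SD over lanes of up to 0.243 TPM. Between 18 and 94 counts a day lay behind these values, and every one of days 14 to 18 was above days 2 to 6. The line gave a log2 change of 2.24 ± 0.48 (adjusted p = 0.00263 by edgeR). The spline's adjusted p was 0.0125, and 0.0650 without day 2, by edgeR. Col10a1 shares 18 bases of exon with the antisense gene Nt5dc1, which had 2596 counts in all.

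Acan, the gene of aggrecan (chr7:86198369-86259985, plus strand), was the lowest of the 10 by its mean. Over the 9 days it was measured at 1.15, 0.258, 0.240, 0.269, 0.253, 0.347, 0.476, 0.530 and 0.754 TPM, and the SD over lanes was widest on day 2, at 0.295 TPM. Day 2 stood apart from the rest of the early days, with 237 counts against 50 or 51 on days 4 and 6, and the level was above that of days 4 to 10 again from day 12. The spline's adjusted p was 0.00214, and the slope over all 9 days did not pass (log2 change -0.18 ± 0.67, adjusted p = 0.843 by edgeR). Without day 2 the slope was 1.80 with an adjusted p of 0.00347 by edgeR, so the direction of the line rests on that 1 library. Versican (Vcan), the related proteoglycan of loose mesenchyme, was far more abundant, and Acan stood at 0.870% of its level on day 2, 0.145% on day 6 and 1.2% on day 18. That last ratio was the highest of the 9 days.

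Hapln1, the link protein that binds aggrecan to hyaluronan (chr13:89680241-89751437, plus strand), was more abundant than Acan on every day. The values ran 4.94, 3.79, 3.53, 6.50, 7.32, 8.07, 7.55, 6.96 and 5.51 TPM from the first day to the last, with an SD over lanes of at most 0.573 TPM. Like Sox9 it was highest on day 12 and lower at the end. The line did not call it (log2 change 0.66 ± 0.35, adjusted p = 0.139 by edgeR), although it did without day 18 (1.00, adjusted p = 0.0454 by edgeR). The spline's adjusted p was 0.0122 over all days, 0.0888 without day 4 and 0.0824 with 2 degrees of freedom, by edgeR. The Acan level was 23.3% of Hapln1's on day 2, 3.46% on day 10 and 13.7% on day 18.

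Comp, a pentameric glycoprotein of cartilage and tendon that binds collagen (chr8:72897447-72905964, plus strand), rose mostly in the middle of the series. Sampled on the same days, it reached 1.29, 2.63, 4.01, 8.55, 42.9, 66.6, 63.6, 68.4 and 79.6 TPM, with an SD over lanes of at most 3.52 TPM. The step from day 8 to day 10 was 2.26 on the log2(TPM + 0.5) scale, and the highest day was 62.0 times the lowest. The line gave a log2 change of 6.53 ± 0.99 (adjusted p = 0.000381 by edgeR). From day 12 Comp was above Sox9 and Col2a1, at 177% of the Sox9 level on day 18.

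Chad encodes chondroadherin, a leucine-rich repeat protein of cartilage matrix that cells bind (chr11:94426361-94430441, plus strand). Its summed counts in order of day were 0, 0, 4, 0, 11, 11, 71, 84 and 449. In TPM the last 3 days read 1.81 ± 0.31, 1.96 ± 0.42 and 11.9 ± 1.78, and 449 of its 630 counts came from day 18. A count of 0 allows up to 3 counts, or 0.0710 CPM on day 2 and 0.101 CPM on day 8. Set against these floors, the 10.1 CPM of day 18 were 142-fold higher for day 2 and 100-fold higher for day 8. These folds use the day 18 estimate without its counting error and are not lower bounds. The Wilson interval reached up to 0.0909 CPM on day 2 and 0.129 CPM on day 8. On day 18 it was 9.21 to 11.1 CPM. The line's adjusted p was 7e-05 by edgeR, and its fitted log2 change of 10.26 ± 1.10 depends on the prior count and is no bound.

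Genes whose profiles over the 9 days were most like the 2 most abundant members were ranked by Pearson correlation on the log2(TPM + 0.5) scale, among 9886 genes with a mean of at least 5 TPM. For Sox9 these were Igdcc4 (r = 0.996), Tox (0.990), Gpr126 (0.990), Pik3r3 (0.990) and Kdelc2 (0.987), each highest in TPM on day 12 as Sox9 was. Igdcc4 went from 7.19 TPM on day 2 to 34.0 on day 12 and 24.1 on day 18. For Col2a1 they were Ralb (r = 0.958), Cspg4 (0.957), Smek1 (0.954), Peg10 (0.949) and Fbxo22 (0.948), each highest on day 2. Peg10 went from 44.2 to 4.26 TPM and Cspg4 from 20.7 to 4.39 TPM between day 2 and day 18. The points share their libraries and an ordering in time, so these values are descriptions.

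Of 21 other genes of cartilage matrix, 18 were tested, with a median fitted log2 change of 3.57. Of these, 12 rose (28.3% over all genes), 1 fell (26.1%) and 15 were called by the spline (57.5%). The largest rises were those of Cnmd (chondromodulin, an inhibitor of vessel growth, listed as Lect1), from 1.26 TPM on day 2 to 132 on day 18 (log2 change 8.55 ± 1.37, adjusted p = 0.000523 by edgeR), Matn4, a matrilin (0.524 to 75.7 TPM, log2 change 8.31), Cilp (0.217 to 20.5 TPM, log2 change 7.70) and Ucma (0.577 to 101 TPM, log2 change 6.15). RSEM split reads of Matn4 with other transcripts in 11 of 27 profiles. By level the list was led by Prelp, a leucine-rich proteoglycan (101 to 1081 TPM), Col11a1 and Vcan. Vcan was the gene that fell, from 132 to 62.8 TPM (log2 change -1.27 ± 0.30, adjusted p = 0.00473 by edgeR). Several of these genes are also expressed in tendon, bone or other connective tissue.

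Among 15 transcription factors and signals of chondrocytes, 10 were tested, with a median log2 change of 1.37. Of these, 6 rose (28.3% over all genes), none fell (26.1%) and 9 were called by the spline (57.5%). Nkx3-2 (0.0701 TPM on day 2, 0.901 on day 18), Pax1 (2.79 to 9.96 TPM) and Pax9 (0.518 to 4.34 TPM), early factors of the sclerotome, rose, as did Mef2c, a factor of hypertrophy (2.64 to 24.5 TPM, log2 change 3.48 ± 0.57, adjusted p = 0.000575 by edgeR). Runx2 (46.4 to 62.0 TPM) and Trps1 (10.8 to 27.9 TPM) were also called, although Runx2 not without day 4 or day 14 (adjusted p = 0.0755 and 0.0514 by edgeR) and Trps1 not without day 2 (adjusted p = 0.0729 by edgeR). Runx2 counts were split by RSEM in 26 of 27 profiles. Foxa2, Barx2 and Ihh, the hedgehog ligand of prehypertrophic chondrocytes, had 3 counts or fewer on every day.

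Of 19 genes that make and sulfate proteoglycan chains, 18 were tested, 5 rose, 3 fell and 12 were called by the spline, with a median log2 change of 0.27. Set against the shares over all genes (28.3% rising, 26.1% falling and 57.5% in the spline), the rises were near. The falls were slightly fewer and the spline calls slightly more. Chst3, a chondroitin sulfotransferase, went from 0.122 to 0.936 TPM (log2 change 4.05), Xylt1, which starts the chains, from 1.18 to 1.99 TPM (1.30) and Chpf from 17.8 to 42.5 TPM (1.09), while Ugdh, which makes their sugar precursor, fell from 119 to 48.0 TPM (-1.18 ± 0.19, adjusted p = 0.000564 by edgeR). The call of Xylt1 was lost without day 4 or day 16 (adjusted p = 0.0606 and 0.0757 by edgeR). The synthase Chsy1 (50.5 to 67.8 TPM, adjusted p = 0.0525) and the phosphatase Impad1 (46.5 to 55.2 TPM, adjusted p = 0.0823) were the other 2 of the most abundant and did not pass by edgeR. Chsy1 passed without day 10 or day 18 (adjusted p = 0.0228 and 0.014 by edgeR) and by DESeq2 (adjusted p = 0.0356). Impad1 passed without day 18 (adjusted p = 0.0206 by edgeR). Chst13 had 3 counts or fewer on every day.

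Of 9 enzymes and inhibitors of matrix turnover all were tested, with a median log2 change of 1.04. Of these, 4 rose (28.3% over all genes), none fell (26.1%) and 9 were called by the spline (57.5%). Mmp3 (0.0510 to 6.23 TPM), Mmp9 (0.320 to 1.38 TPM), Adamts7 (3.42 to 9.06 TPM) and the aggrecanase Adamts5 (44.1 to 73.2 TPM) were called by the line, Adamts7 not without day 2 (adjusted p = 0.0761 by edgeR). Mmp13, the collagenase of hypertrophic cartilage and of bone, was at 4.76 TPM on day 2, 142 on day 8 and 91.1 on day 18 and was called by the spline only (adjusted p = 1.45e-06 by edgeR). Timp3, an inhibitor, was the most abundant at 609 TPM on day 2, 229 on day 6 and 750 on day 18, with counts split by RSEM in 27 of 27 profiles. The line did not call it over all days but did without day 2 (log2 change 1.96, adjusted p = 0.000454 by edgeR). The spline called it (adjusted p = 1.01e-05 by edgeR).

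Markers of cell types were followed over the same days, in cells that had all been sorted for the fluorescent protein before day 2. Of 10 osteoblast markers 7 rose and none fell, against 28.3% and 26.1% over all genes. Their summed level was 3001 to 5280 TPM on days 2 to 6 and 7644 to 9330 on days 14 to 18. Most of that sum was type I collagen, Col1a1 (1526 to 4263 TPM) and Col1a2. Type I collagen is also made by cells other than osteoblasts. Ibsp (0.581 to 78.3 TPM), Phex (0.338 to 37.2 TPM), Dmp1 (0.0512 to 6.54 TPM) and Bglap (1.24 to 208 TPM, split by RSEM in 13 profiles), markers of mineralizing osteoblasts and osteocytes, had the largest rises, and Col1a1, Col1a2 (983 to 4114 TPM) and Spp1 the highest levels. On days 2, 6, 10 and 18 Spp1 was at 402, 1012, 285 and 532 TPM, and the line did not call it (log2 change -1.17 ± 0.54, adjusted p = 0.0932 by edgeR). Spp1 was called as falling without day 2 or day 18 (adjusted p = 0.0362 and 0.0248 by edgeR). Sp7 and Alpl, a transcription factor and a phosphatase of osteoblasts, are added after their values were seen, because they were not called by the line. Sp7 was at 32.3 TPM on day 2, 2.77 on day 8 and 10.6 on day 18 (log2 change -1.23 ± 0.83, adjusted p = 0.233 by edgeR, and 1.16e-05 in the spline). Alpl was at 9.13 TPM on day 2, 0.467 on day 6 and 17.6 on day 18 (log2 change 2.22 ± 1.22, adjusted p = 0.146 by edgeR, and 0.00742 in the spline).

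Of 7 tendon markers 3 rose and 2 fell, against 28.3% and 26.1% over all genes. Their summed level was 817 to 938 TPM on days 2 to 6 and 1964 to 2074 on days 14 to 18. Tnmd (142 to 719 TPM) and Fmod (215 to 1053 TPM) rose, while Scx, a tendon transcription factor (9.69 to 2.51 TPM), and Tnc (351 to 101 TPM) fell. The other marker that rose was Mkx (10.0 to 27.8 TPM, log2 change 1.45 ± 0.16, adjusted p = 8.58e-05 by edgeR), added after its values were seen. Comp rose with Tnmd, Fmod and Mkx and against Scx and Tnc. The part of tendon-type cells in the Comp level was not tested.

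Of 7 macrophage markers 6 rose and none fell, against 28.3% and 26.1% over all genes. Their sum was 24.1 to 61.7 TPM on days 2 to 6 and 522 to 2014 TPM on days 14 to 18. Most of it was Lyz2 (19.9 to 1855 TPM, split by RSEM in 20 profiles). Cd68 went from 1.79 to 114 TPM, Emr1 from 0.0704 to 17.2, Itgam from 0.115 to 7.41 and Csf1r from 1.38 to 14.9. All 5 adipocyte markers rose, from a sum of 3.21 to 7.44 TPM to 188 to 407 TPM, among them Adipoq (0.204 to 92.0 TPM), Plin1 (0.0637 to 46.9), Fabp4 (1.92 to 198), Cfd (0.108 to 35.1) and Pparg (5.15 to 35.1). Of 6 skeletal muscle markers 3 were tested, none rose and 1 fell, Acta1, from 5.56 to 0.388 TPM. Myh3 and Ttn stayed below 0.5 TPM, and Myod1, Myog and Ckm had 3 counts or fewer on every day. The muscle sum was 5.59 to 13.9 TPM on days 2 to 6 and 0.388 to 0.625 on days 14 to 18. Nearly all of the early sum was Acta1, with 13.8 of 13.9 TPM on day 4, so the sum mainly follows that gene. The part of macrophages, adipocytes or any muscle cells in the early Acan and Sox6 levels or in the late Chad, Comp and Col9a1 levels was not tested.

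**Figure D5:**
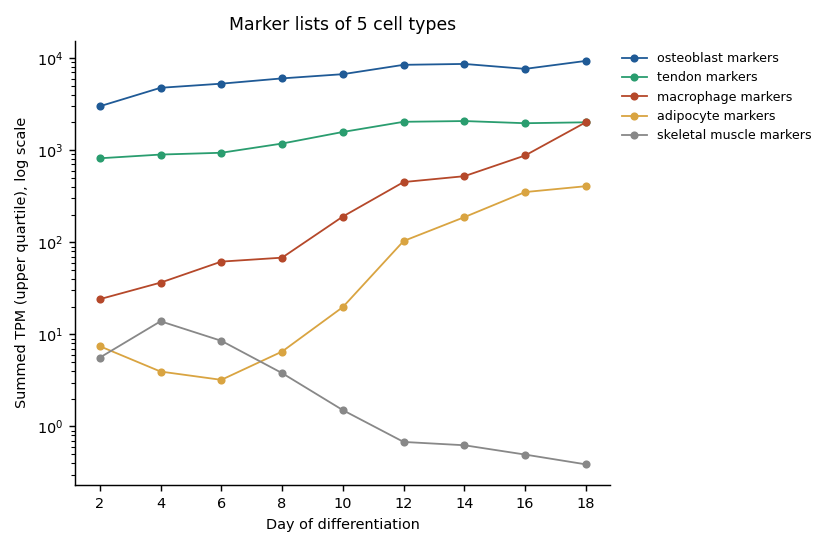
Summed level (vertical axis, TPM scaled to the upper quartile, log scale) of the marker lists of 5 cell types by day (horizontal axis). The macrophage sum climbs from 24.1 TPM on day 2 to 2014 on day 18, and the adipocyte sum from 3.21 on day 6 to 407 on day 18. The skeletal muscle sum, nearly all Acta1 on days 2 and 4, falls from 13.9 TPM on day 4 to 0.388 on day 18. Most of the osteoblast sum is Col1a1 and Col1a2.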

How the data were processed

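RNA from sorted mouse calvarial cells was amplified (NuGEN Ovation) and sequenced on 9 days, as 27 profiles, 3 a day, which the study's methods call triplicates and whose file names show 1 barcode in 3 lanes. Reads were aligned with Bowtie 0.12.9 to the NCBIM37 transcriptome and quantified with RSEM, version 1.2.8 in the submitters' processing notes. The deposited estimated counts are RSEM expected counts per gene and are not normalized. The TPM deposited by the authors divide each count by a length averaged over transcripts and sum to a fixed total. The FPKM deposited by the authors scale by the same length and were used in 1 alternative.

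The 10 genes and all lists were chosen with earlier results of these data known. Symbols came from the GENCODE annotation of NCBIM37. TPM were put on a common scale by the upper quartile of each profile's nonzero values. Counts were summed over the 3 lanes of a day, rounded, and fitted with edgeR 4.0.16 in R 4.3.3 (factors from the upper quartile, filterByExpr at 10 counts, a straight line or a natural spline with 3 degrees of freedom, Benjamini-Hochberg adjustment over all genes). The model was tested on simulated counts, drawn independently for each day around flat or straight trends. That simulation did not cover curved trends. Only counting error is covered by the Wilson intervals and by the floor of 3 counts. From each list the text names the up to 4 largest called changes, the 3 highest levels and the genes at the floor. Col9a2 and Col9a3 were named for belonging to the same collagen as Col9a1, outside that rule. Sp7, Alpl and Mkx were added outside it as well, after their values were seen.

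Alternatives were TMM factors, DESeq2 1.42.0, other filters, thresholds and pseudocounts, 27 profiles with and without a replicate block, a spline with 2 degrees of freedom, and each lane or day left out.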

Additional observations from a re-analysis of the deposited data

How the results depend on the processing

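Over 1522 recomputed values, 1438 neither changed sign nor crossed the threshold (counts within 1.5 times, levels within the SD over lanes), 9 changed sign, 18 lost a call, 26 gained one and 31 moved. The number of cartilage genes called as rising was 4 to 6, as falling 1 and by the spline 7 to 10 (7 with 2 degrees of freedom, where Sox6 and Hapln1 were lost), and 7 were expressed at 5 TPM or more and 8 by the FPKM values. Sign changes concerned genes that the line did not call. Without day 2 the fitted log2 change was -0.16 for Sox5, 0.32 for Sox6, 1.80 for Acan and -0.071 for Mmp13. For days 2 to 6 against days 14 to 18 it was -0.055 for Sox5 and 0.0023 for Acan. The log2 difference of late and early days for Sox5 was -0.073 in CPM with TMM factors. Leaving out 1 lane, the Sox5 slope ranged from -0.024 to 0.14 and its late-minus-early difference from -0.039 to 0.23. The cause was not tested beyond the library left out.

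The replicate numbers do not pair the samples, since same-numbered profiles had a mean correlation of deviations of 0.0057 and a lowest of -0.07. With the 27 profiles as separate samples the line called 10754 genes without and 10881 with a replicate block, against 8510 for the 9 summed libraries, and the spline 12775 and 12857 against 9350. These larger counts treat profiles that share a barcode as replicates, and Hapln1 in the line and Sox5 in the spline passed only there among the fits over all days. The number of cultures behind a day was not given in the sources used here, so a change over days cannot be told apart from a difference between dishes. Among the 10 genes, low counts limit Col10a1, Acan, early Col9a1 and early Chad. Of the other named genes that rose, Nkx3-2, Col9a2, Mmp3, Bglap, Dmp1, Adipoq, Plin1 and Cfd had 3 counts or fewer on their lowest day, which limits their rises too.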
